A study of Mus musculus with 2 samples.

Results

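Mitochondrial solute carriers are the proteins that move metabolites, nucleotides, cofactors and ions across the inner mitochondrial membrane. They comprise the Slc25a family, to which the uncoupling proteins belong, and the pyruvate carrier subunits Mpc1 and Mpc2. Membership was set by symbol alone, as Slc25a followed by a number or as Ucp1, Ucp2, Ucp3, Mpc1 or Mpc2. Each gene was represented by its probe set with the highest mean on both arrays. This gave 44 genes of the 17305 genes measured. The family was taken up with earlier results of these data known, so counts among its genes are a description. RefSeq lists 52 protein-coding mouse genes with such symbols, and the other 8, among them Mpc2, Ucp1 and Ucp2, were not analysed here.

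Levels were compared between 1 sample of grafted small intestinal epithelium and 1 sample of control colonic epithelium, each on 1 array. The graft came from small intestinal cells of EGFP-transgenic mice on a C57BL6 background, which were cultured for 7 days as organoids that contain stem cells and then instilled into the colon of C57BL6 recipients. It was taken 4 weeks after transplantation, and the control colon came from a C57BL6 mouse. Both epithelia were laser-microdissected, serial sections of a specimen were combined, and 4.33 ng of total RNA was amplified before hybridization. Per the series' design text, each array carries the sample of its group with the best RNA integrity. Ages and sexes are not stated in the labels. Ungrafted small intestine was not analysed here, so tissue of origin and grafting cannot be told apart. With 1 array per group there is no test of any difference, and each value describes these 2 samples only. A lower level in such bulk samples can come from fewer cells of a type or from less RNA per cell, and these cannot be told apart.

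The inner membrane is nearly closed to charged metabolites, so each pathway that is split between the mitochondrial matrix and the cytosol needs a carrier. Most Slc25a proteins exchange 1 substrate for another, such as ADP for ATP or ornithine for citrulline. In the gut epithelium they serve ATP supply, the burning of fatty acids, and, in small intestinal enterocytes, the making of citrulline from glutamine. Colonocytes are known for burning butyrate, a short-chain fatty acid made by bacteria.

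Marker genes differed between the 2 arrays in the direction of the labels. The marker lists were drawn up with earlier results of these data known, so they are no independent check. Of 10 small intestinal enterocyte markers, 9 were higher in the graft by 2-fold or more, and of 8 colonic markers all 8 were at least 2-fold lower. Over all measured genes the shares were 1.93% higher and 3.09% lower. Of 12 general epithelial markers, 0 differed by 2-fold, with a median difference of 0.30. All 5 Paneth cell markers, which mark antimicrobial crypt cells, were past 2-fold upward in the graft. All differences are graft minus control colon on the log2 scale of the deposited values, on which 1 unit is 2-fold. For 586 genes, 2 probe sets reached the median of all gene values on at least 1 array. The difference of the second brightest was subtracted from that of the brightest, and the result had an SD of 0.48 over these genes. This SD, called the SD between probe sets below, is the spread of a gap between 2 differences and not of 1 difference. Both probe sets were read on the same 2 arrays, so this SD leaves out error from sampling, amplification and hybridization. The table offers no other measure of technical error, and a value above this SD can still be such error.

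The carriers had differences in both directions, most of them small. Their median difference was 0, as it was over all genes, and 34 of the 44 (77.3%) lay within 0.5 of 0, against 83.7% of all genes. In the graft 20 had a higher value and 21 a lower one, and 3 had the same value on both arrays. At least 2-fold higher in the graft were 3 of 44, Slc25a4, Slc25a15 and Slc25a45, where 1.93% of all measured genes were. At least 2-fold lower were 4 of 44, Slc25a20, Slc25a35, Slc25a36 and Slc25a17, where 3.09% of all measured genes were. In either direction this is 15.9% of the carriers, against 5.02% of all measured genes. The carriers also reached the median level more often than all genes together. At least 1 value reached 5.48, the median over all genes and both arrays, for 28 of the 44 carriers (63.6%), against 54.3% of all genes. All 7 carriers that differed by 2-fold were among those 28. Of the 9392 genes that reached this level, 3.55% were past 2-fold upward in the graft and 5.68% downward. In either direction this is 9.22% of the 9392 genes, against 25% of the 28 carriers.

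**Figure D1:**
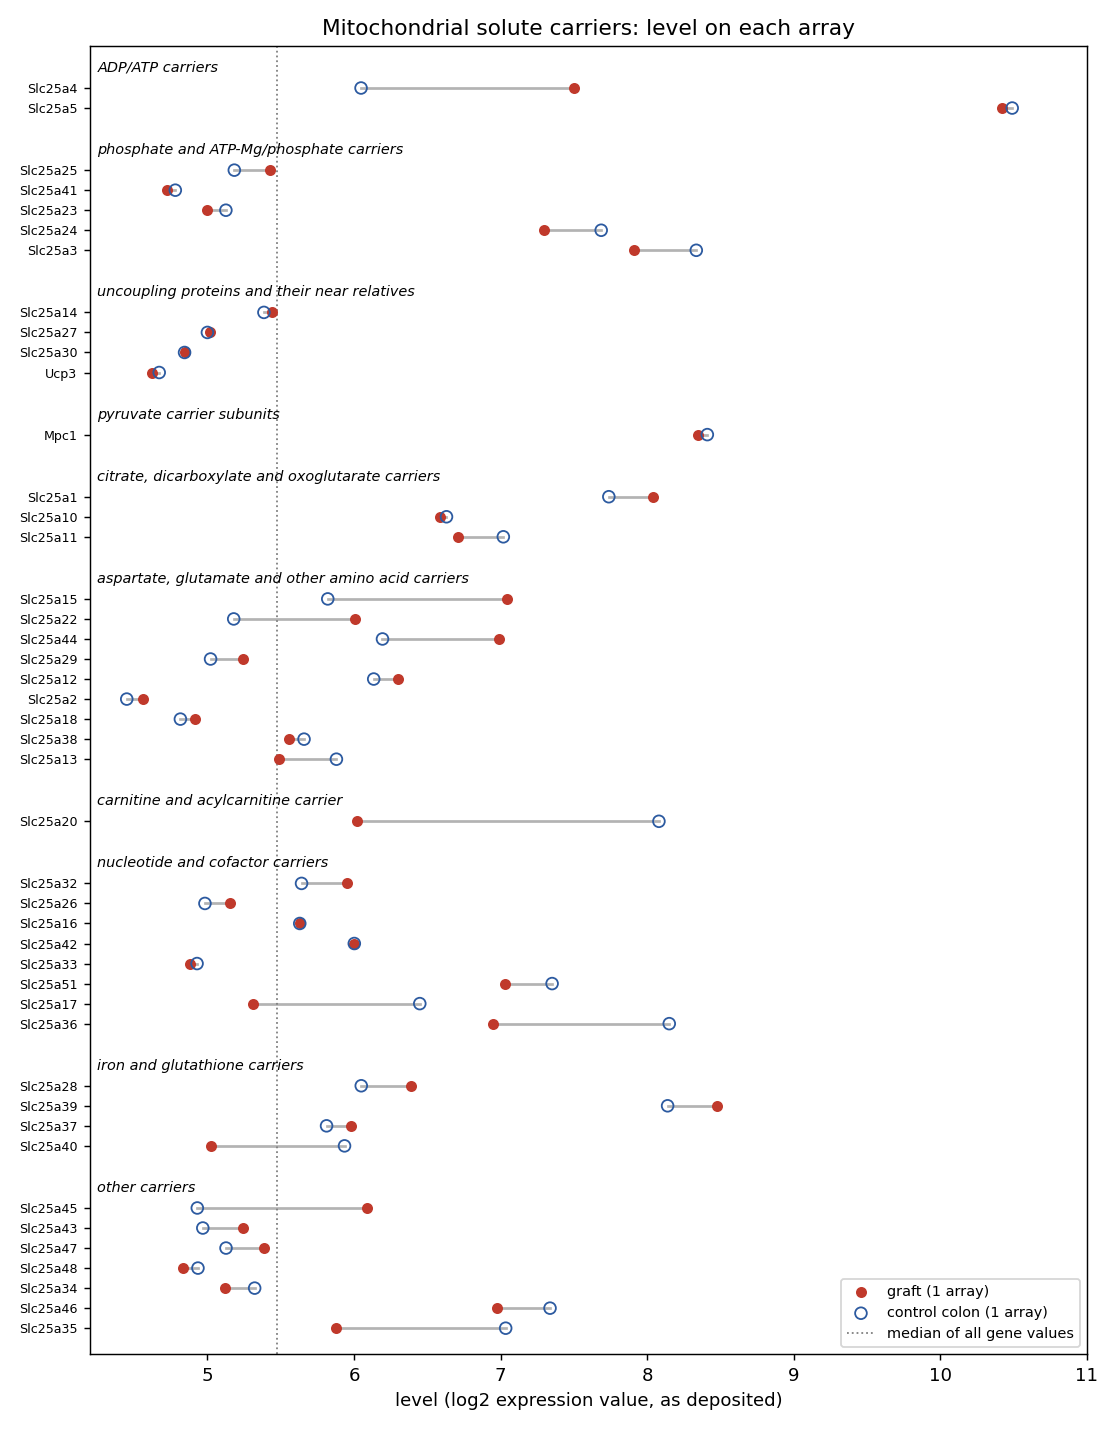
Level of each of the 44 carriers on the graft array (filled red circles) and the control colon array (open blue circles), as log2 expression values, grouped by substrate. A grey line joins the values of a gene, and the dotted line is the median of all gene values, 5.48. The longest line is that of Slc25a20, at 6.02 in the graft and 8.08 in the control colon. Levels of different genes come from different probes and cannot be set against each other.

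Slc25a20, the carnitine and acylcarnitine carrier, brings long-chain fatty acids bound to carnitine into the matrix for oxidation. Its level stood at 6.02 in the graft, against 8.08 in the control colon, a difference of -2.06, or 4.17-fold lower in the graft. It was the only carrier past 4-fold, a size reached downward by 0.745% of all measured genes. The other genes of the carnitine shuttle had smaller differences in the same direction. Cpt1a, which makes acylcarnitine at the outer membrane, stood at 6.97 in the graft, against 7.77 in the control colon, a difference of -0.80. Cpt2, which releases the fatty acid again inside the matrix, had a difference of -0.25. Slc22a5, the carnitine transporter of the plasma membrane, had a difference of -0.38, and Crat and Crot, which transfer acyl groups to carnitine, had differences of -0.21 and -0.18. Of these 5 genes, 0 differed by 2-fold. Their values were all lower in the graft, where 7597 of the 17305 genes had a lower value.

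Among the regulators of mitochondrial genes, Ppargc1a and Pparg were lower in the graft as well. Ppargc1a, a coactivator of genes for oxidative metabolism, stood at 7.58 in the graft, against 8.64 in the control colon, a difference of -1.05. Pparg, a nuclear receptor activated by fatty acids, stood at 6.84 in the graft, against 7.88 in the control colon, a difference of -1.04. With quantile normalization these differences were -0.97 and -0.97, just inside 2-fold, and averaging all probe sets gave -0.95 for Ppargc1a. Ppara, the receptor known for inducing fatty acid oxidation genes, lay below the median level on both arrays, at 5.45 in the graft and 5.38 in the control colon. Tfam, a factor for mitochondrial DNA, had a difference of 0.03, and Esrra, an orphan receptor that binds promoters of oxidative genes, of 0.28. Of the 9 regulators of mitochondrial gene expression, 0 were past 2-fold upward in the graft and 2 downward. Over all measured genes the shares were 1.93% and 3.09%.

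The start of Slc25a20 is shown because this carrier had the largest difference. The 250 bases before its start site in RefSeq, on the plus strand of GRCm38.p6 at chr9:108661886-108662135, contain 3 GC boxes, GGGCGG on either strand, printed here in capitals.
Slc25a20 promoter: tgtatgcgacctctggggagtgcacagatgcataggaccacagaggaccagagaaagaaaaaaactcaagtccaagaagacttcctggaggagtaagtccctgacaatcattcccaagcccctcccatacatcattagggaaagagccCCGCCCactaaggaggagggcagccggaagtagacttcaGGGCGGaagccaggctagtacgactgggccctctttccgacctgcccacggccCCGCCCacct
From base 7 after the start site follows AGGTGAAAGGTCG, which matches 2 copies of AGGTCA set 1 base apart, the direct repeat bound by PPAR and HNF4 receptors, with 2 mismatches. On either strand, with at most 2 mismatches and in 300 bases around the start, such a match was found in 3.86% of 32851 promoters. It was found in 4 of the 43 windows of the 34 carriers with a promoter in the RefSeq table, those of Slc25a20, Slc25a45, Slc25a47 and Ucp3. A match is a stretch of letters and not a measured binding site. GC boxes lay in 37 of 43 windows of these 34 carriers, against 35.7% of all promoters. Counted by gene, 29 of the 34 had at least 1. The promoters were not matched for GC content or gene class, and whether the carriers differ from similar promoters was not tested.

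The ADP/ATP carriers exchange ATP made in the matrix for ADP from the cytosol, and 2 of them were measured. Slc25a4, the form that predominates in heart and skeletal muscle, stood at 7.50 in the graft, against 6.05 in the control colon, a difference of 1.45, or 2.74-fold higher in the graft. Slc25a5, the form of most dividing and epithelial cells, stood at 10.42 in the graft, against 10.49 in the control colon, a difference of -0.07. The difference of Slc25a4 was thus 1.52 above that of its close relative. The other probe sets named for Slc25a5 gave differences of -0.18 and -0.17. With quantile normalization the value of -0.07 became 0.05, so no direction can be given for Slc25a5. Slc25a4 and Slc25a5 are similar in sequence, and Slc25a5 has processed copies in the genome, so probes may read more than 1 transcript. Probe set numbers mostly follow the chromosomes. The Slc25a5 probe set used is numbered apart from those of the X chromosome, where the gene lies. Striated muscle markers, listed because Slc25a4 is abundant in muscle, were low on both arrays. Of these 6 genes, 4 stayed below the median level on both arrays and 0 differed by 2-fold, with summed linear levels of 234 in the graft and 220 in the control colon. Such sums, here and below, add up different probes and hold background, so they are no measure of cell content. Ckm, the muscle creatine kinase, stood at 5.98 in the graft, against 5.99 in the control colon. Of 13 fibroblast and smooth muscle markers, 0 were past 2-fold upward in the graft and 1 downward, against 1.93% and 3.09% of all measured genes. Their summed linear levels were 882 in the graft and 1165 in the control colon.

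Slc25a4 had the largest positive difference, and its promoter is shown for that reason. The 250 bases before its start site lie on the minus strand of GRCm38.p6 at chr8:46211063-46211312. Capitals mark 2 CCAAT boxes.
Slc25a4 promoter: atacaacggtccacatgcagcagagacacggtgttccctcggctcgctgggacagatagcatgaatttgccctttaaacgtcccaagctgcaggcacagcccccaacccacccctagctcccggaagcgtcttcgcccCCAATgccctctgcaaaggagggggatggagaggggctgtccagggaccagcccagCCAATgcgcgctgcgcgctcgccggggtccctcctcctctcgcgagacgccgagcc
CCAAT, on either strand and in the 300 bases around the start, was found in 37.4% of all promoters and in 21 of the 43 windows of the carriers. The Slc25a20 window held none, and the Slc25a4 window had no match to the repeat of AGGTCA within 2 mismatches. The 2 printed stretches had a GC content of 56.8% for Slc25a20 and 64.8% for Slc25a4, against a median of 52.4% over all promoters.

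Carriers of phosphate and of ATP-Mg supply the matrix with phosphate and adjust its adenine nucleotide pool. Slc25a3, which imports phosphate for ATP synthase, stood at 7.91 in the graft, against 8.33 in the control colon, a difference of -0.42. Slc25a24, a calcium-regulated ATP-Mg/phosphate carrier, stood at 7.30 in the graft, against 7.69 in the control colon, a difference of -0.39. Both were lower in the graft by less than the SD between probe sets. Of their relatives, Slc25a23, Slc25a25 and Slc25a41 lay below the median level on both arrays, with differences of -0.13, 0.24 and -0.05. Signal cannot be separated from background at such levels, because no detection call comes with the values.

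The uncoupling proteins let protons leak back into the matrix, and several relatives share their sequence. All 4 measured genes of this group, Ucp3, Slc25a14, Slc25a27 and Slc25a30, lay below the median level on both arrays. Ucp3, known from skeletal muscle, stood at 4.63 in the graft, against 4.67 in the control colon, below the 20th percentile of each array, 4.75 for the graft and 4.74 for the control colon. The differences of the 4 genes ran from -0.05 to 0.06.

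Mpc1 encodes a subunit of the carrier that imports pyruvate, the end product of glycolysis. Its level stood at 8.35 in the graft, against 8.41 in the control colon, a difference of -0.06. The only Mpc1 probe set is numbered beside that of Slc25a29 on chromosome 12, whereas Mpc1 is on chromosome 17. That probe set may thus read a copy of the gene, which was not tested. Of 10 genes that make, use or regulate the use of pyruvate, 0 differed by 2-fold. Pdk2, a kinase that inhibits pyruvate dehydrogenase, stood at 6.96 in the graft, against 7.85 in the control colon, a difference of -0.89. Pdhb, a subunit of that enzyme, had a difference of 0.59, and Pdk1, another inhibiting kinase, of -0.58.

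The carriers of citrate, dicarboxylates and oxoglutarate link the citric acid cycle to the cytosol. Slc25a1, which exports citrate for fatty acid and sterol synthesis, stood at 8.04 in the graft, against 7.74 in the control colon, a difference of 0.30. Slc25a10, the dicarboxylate carrier, had a difference of -0.05, or 0.02 with quantile normalization, and Slc25a11, which exchanges oxoglutarate for malate, of -0.31. Larger differences were found among the cytosolic enzymes. Me1, which makes NADPH from malate, stood at 8.56 in the graft, against 4.70 in the control colon, a difference of 3.86. The control colon value of Me1 lay below the 20th percentile of its array, so the fold is not determined. Acly, which cleaves exported citrate, stood at 6.76 in the graft, against 8.09 in the control colon, a difference of -1.34. Acaca and Fasn, which build fatty acids from the carbon of exported citrate, had differences of 0.35 and 0.38.

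Aspartate/glutamate carriers and oxoglutarate exchange form the malate-aspartate shuttle, which passes reducing power into the matrix. Slc25a12 stood at 6.30 in the graft, against 6.13 in the control colon, and Slc25a13 at 5.49 in the graft and 5.88 in the control colon. The differences, 0.16 and -0.39, were both below the SD between probe sets. The shuttle's enzymes had higher values in the graft. Mdh2, the matrix malate dehydrogenase, had a difference of 1.38, Got1 and Got2, the aspartate aminotransferases, of 0.73 and 0.54, and Mdh1 of 0.12. The glycerol phosphate shuttle needs no carrier, and both of its enzymes were past 2-fold upward. Gpd2, the enzyme on the inner membrane, stood at 9.29 in the graft, against 7.29 in the control colon, and Gpd1, the cytosolic enzyme, at 7.09 in the graft and 5.95 in the control colon. Of the 6 shuttle enzymes, 3 were at least 2-fold higher and 0 were at least 2-fold lower, against 1.93% and 3.09% of all measured genes.

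Among the amino acid carriers, the ornithine carrier Slc25a15 was 2.34-fold higher in the graft. Slc25a15 brings ornithine into the matrix in exchange for citrulline, which is exported. Its level stood at 7.05 in the graft, against 5.82 in the control colon, a difference of 1.22. Slc25a2, the related ornithine carrier, lay below the 20th percentile on both arrays, at 4.56 in the graft and 4.45 in the control colon. Several enzymes of the same pathway were higher in the graft, and Oat and Asl were not. Cps1, which makes carbamoyl phosphate, stood at 10.64 in the graft, against 6.00 in the control colon, a difference of 4.65. Otc, which joins carbamoyl phosphate to ornithine to give citrulline, stood at 7.01 in the graft, against 5.67 in the control colon, a difference of 1.34. Nags, whose product activates Cps1, had a difference of 1.46, and Arg2, the mitochondrial arginase that forms ornithine, of 3.28. The control colon values of Nags, 4.76, and Arg2, 4.92, lay below the median of all gene values, so these differences may be understated. Of the 7 measured genes of this list, 4 were at least 2-fold higher and 0 were at least 2-fold lower. Over all measured genes the shares were 1.93% and 3.09%, and the list was drawn up with earlier results of these data known. Oat, which interconverts ornithine and glutamate semialdehyde, had a difference of -0.15, and Asl, a cytosolic enzyme that splits argininosuccinate, of -0.15. Aldh18a1, which starts ornithine and proline synthesis from glutamate, stood at 7.57 in the graft, against 5.67 in the control colon, a difference of 1.90.

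Glutamate enters the matrix through Slc25a22 and Slc25a18. Slc25a22 stood at 6.01 in the graft, against 5.18 in the control colon, a difference of 0.83, whereas Slc25a18 lay below the median level on both arrays with a difference of 0.10. Slc25a44, a carrier of branched-chain amino acids, stood at 6.99 in the graft, against 6.19 in the control colon, a difference of 0.79. These 2 values were larger than the SD between probe sets and stayed inside 2-fold. Slc25a29, a carrier of basic amino acids, and Slc25a38, which imports glycine for heme synthesis, had differences of 0.22 and -0.11. Of the 9 amino acid carriers, 1 was at least 2-fold higher in the graft, 0 were at least 2-fold lower, and the median difference was 0.16. Over all measured genes 1.93% were at least 2-fold higher and 3.09% at least 2-fold lower.

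Among the 8 carriers of nucleotides and cofactors, Slc25a36 and Slc25a17 were past 2-fold downward and 0 were past it upward. Over all measured genes the shares were 3.09% downward and 1.93% upward. Slc25a36, which imports pyrimidine nucleotides for mitochondrial DNA and RNA, stood at 6.95 in the graft, against 8.15 in the control colon, a difference of -1.20. A second probe set named for Slc25a36 stood at 6.31 in the graft, against 6.87 in the control colon, a difference of -0.57, and the mean of both gave -0.88. The direction was thus shared by both probe sets, and the 2-fold call rested on 1 of them. By its number the second probe set lies apart from those of chromosome 9, where Slc25a36 is, and may read a copy. This was not tested. Slc25a33, the related pyrimidine nucleotide carrier, lay below the median level on both arrays with a difference of -0.05.

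Slc25a17, which sits in the peroxisomal membrane and carries cofactors such as coenzyme A, stood at 5.31 in the graft, against 6.45 in the control colon, a difference of -1.14. The graft value of Slc25a17 lay below the median of all gene values, so its difference may be understated. The coenzyme A carrier Slc25a42 and its relative Slc25a16 had the same value on both arrays, 6.00 and 5.63. Such exact ties were found for 12.6% of all genes and 6.82% of the carriers, the third being Slc25a30. Slc25a51, the carrier of NAD, had a difference of -0.32, Slc25a32, the carrier of folate, of 0.31, and Slc25a26, the carrier of S-adenosylmethionine, of 0.17. Of 10 genes for coenzyme A, folate and one-carbon metabolism, 0 differed by 2-fold. The largest differences in that list were those of the serine hydroxymethyltransferase Shmt1, at -0.86, the pantothenate kinase Pank1, at -0.81, and the matrix folate enzyme Mthfd2, at 0.80.

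The glutathione carrier Slc25a39 and its relative had differences of opposite sign, the first of them below the SD between probe sets. Slc25a39, which imports glutathione, stood at 8.48 in the graft, against 8.14 in the control colon, a difference of 0.34. Its close relative Slc25a40 stood at 5.02 in the graft, against 5.94 in the control colon, a difference of -0.91. The probe set used for Slc25a40 is numbered among those of chromosome 9 carriers, although the gene is on chromosome 5. The second probe set named for Slc25a40 gave -0.97. Both graft values, 5.02 and 4.87, lay below the median of all gene values, so these differences may be understated. The mitoferrins Slc25a37 and Slc25a28 import iron for heme and iron-sulfur clusters. Their differences, 0.17 and 0.34, were below the SD between probe sets. Of 6 genes for mitochondrial iron use, 1 was at least 2-fold higher, against 1.93% of all measured genes. This was Alas1, the first enzyme of heme synthesis, at 7.43 in the graft and 6.40 in the control colon. The transferrin receptor Tfrc had a difference of 0.69, and Fech, the last enzyme of heme synthesis, of -0.23.

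Of the remaining carriers, Slc25a45 stood at 6.09 in the graft, against 4.93 in the control colon, a difference of 1.16. Its control colon value lay below the median of all gene values, so the difference may be understated. Slc25a35 stood at 5.87 in the graft, against 7.03 in the control colon, a difference of -1.16. Slc25a46, an outer membrane protein tied to mitochondrial shape, stood at 6.98 in the graft, against 7.34 in the control colon, a difference of -0.36. Slc25a34, Slc25a43, Slc25a47 and Slc25a48 lay below the median level on both arrays, with differences of -0.20, 0.27, 0.26 and -0.10.

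**Figure D2:**
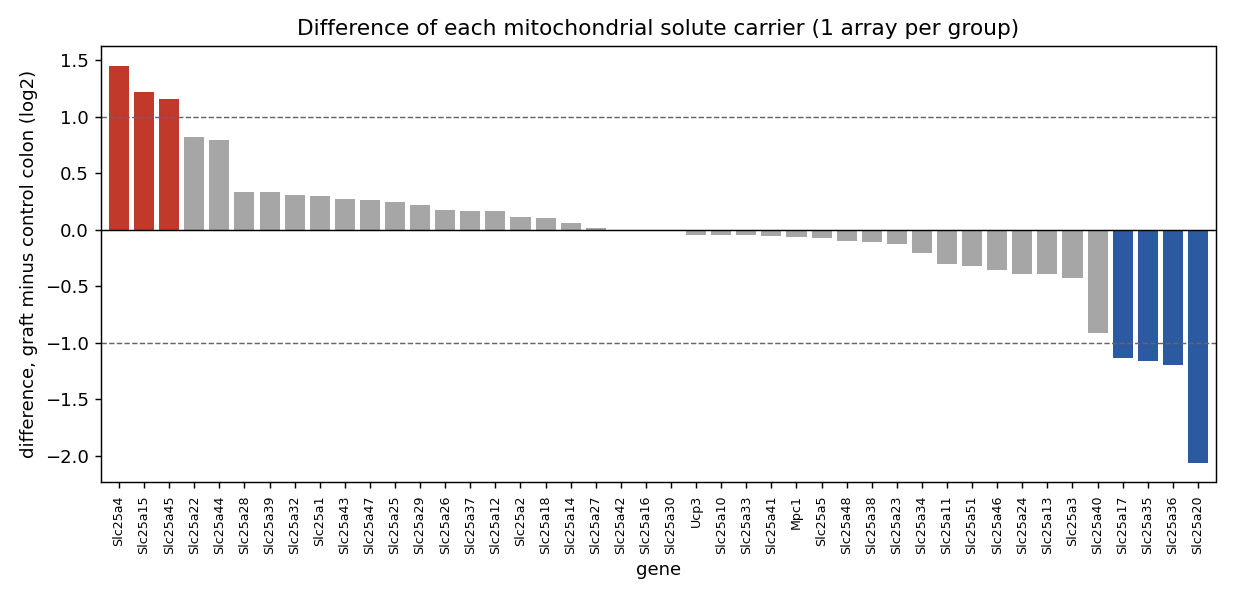
Difference of each of the 44 carriers, graft minus control colon, on the log2 scale, sorted from the highest to the lowest. Dashed lines mark 2-fold, red bars the 3 genes past 2-fold upward in the graft and blue bars the 4 genes past 2-fold downward. Slc25a17 at -1.14 lies just past the lower threshold and Slc25a40 at -0.91 just short of it, and Slc25a45 at 1.16 and Slc25a22 at 0.83 are the nearest genes on either side of the upper one.

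Several carriers are next to each other in the genome with no other protein-coding gene between them in the RefSeq table. These are Slc25a29 and Slc25a47 on chromosome 12, Slc25a41 and Slc25a23 on chromosome 17, and Slc25a43 and Slc25a5 on the X chromosome. Their differences were 0.22 and 0.26 for the first pair, -0.05 and -0.13 for the second, and 0.27 and -0.07 for the third. The Slc25a5 probe set numbered beside that of Slc25a43 gave -0.18, and the one used is numbered elsewhere. None of these 6 genes differed by 2-fold. The 7 carriers that did lay on chromosomes 8, 9, 11, 15 and 19, with Slc25a4 and Slc25a15 on 8 and Slc25a20 and Slc25a36 on 9.

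The spread of the carriers was set beside that of other mitochondrial components and of other transporters. The SD of the differences was 0.63 over the 44 carriers, 0.33 over 88 genes of the respiratory chain and ATP synthase, 0.34 over 77 mitochondrial ribosomal protein genes and 0.84 over 295 other Slc genes. Over all 17305 measured genes the SD was 0.55. Of the 44 carriers, 7 differed by 2-fold, of the 88 respiratory chain genes 0 and of the 77 ribosomal protein genes 1, against 5.02% of all measured genes. Among the other Slc genes, most of which encode transporters of the plasma membrane, 36 of 295 (12.2%) differed by 2-fold, 13 higher and 23 lower. Counted only over genes that reached the median level, the shares were 25% for the carriers, 24% for the other Slc genes and 9.22% for all genes. The medians of these 3 families were -0.01, -0.02 and 0, in the order respiratory chain, ribosomal proteins and other Slc genes. The outer membrane channels Vdac1, Vdac2 and Vdac3, through which metabolites reach the carriers, had differences of -0.11, 0.46 and -0.38. Of 8 genes for the import of carrier proteins into the inner membrane, 0 differed by 2-fold, with Timm29 at 0.39, Tomm70a at 0.33 and Tomm40 at 0.26. These families differ in size and in level, and no test of the difference between them was made.

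**Figure D3:**
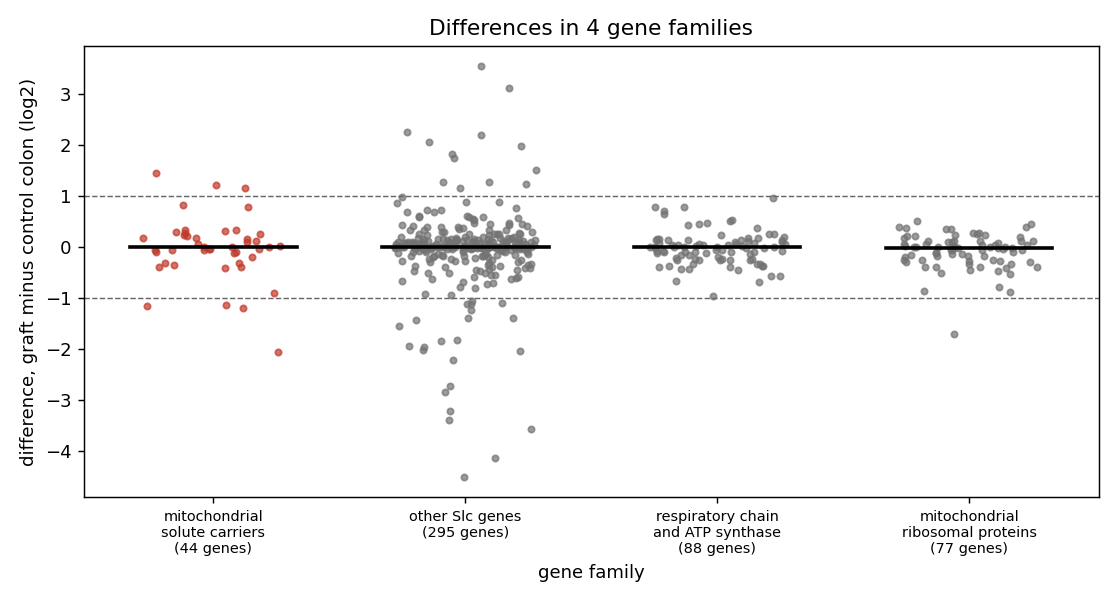
Differences, graft minus control colon, on the log2 scale, for 44 mitochondrial solute carriers (red) and 3 other gene families (grey), 1 point per gene. Black bars are medians and dashed lines mark 2-fold. The medians lie between -0.02 and 0, and the points of the carriers reach from -2.06 to 1.45.

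**Figure D4:**
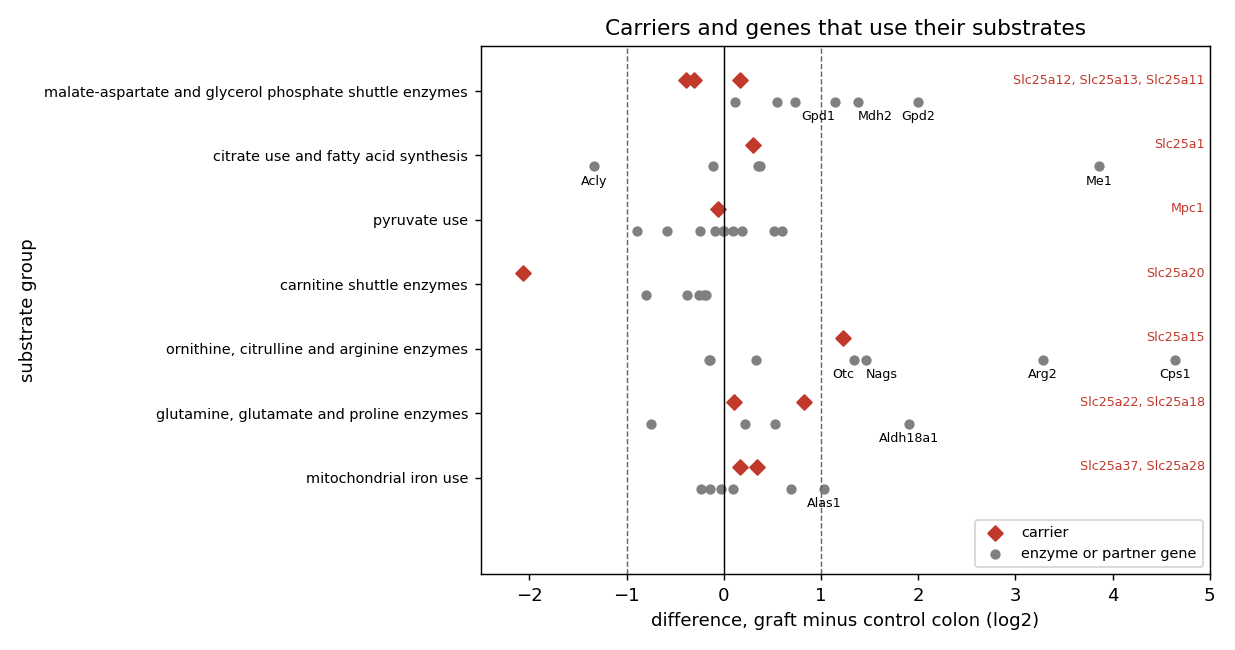
Differences, graft minus control colon, on the log2 scale, of carriers (red diamonds, named at the right) and of genes that use their substrates (grey circles, named where at least 2-fold apart). Dashed lines mark 2-fold. Slc25a15, at 1.22, lies above 0 with Cps1, Arg2, Nags and Otc, and Slc25a20, at -2.06, lies below all carnitine shuttle genes.

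Over the 11 lists of genes tied to carrier substrates, import and regulation, 73 of 84 listed symbols were measured, of which 10 were past 2-fold upward in the graft and 3 downward, 13.7% and 4.11% of them, against 1.93% and 3.09% of all measured genes. The lists were drawn up with earlier results of these data known, so these shares are a description. The count of 3 became 1 with quantile normalization and 2 with averaged probe sets. The 3 lower genes were Acly, Ppargc1a and Pparg. Among the 10 higher genes, 4 belonged to the list of ornithine, citrulline and arginine enzymes and 3 to the shuttle enzymes. Leukocyte markers, listed because blood cells can enter a microdissected epithelium, had a median difference of 0.11 over 11 genes, of which 6 stayed below the median level on both arrays and 0 differed by 2-fold. Ptprc, the pan-leukocyte gene, had a difference of 0.78, the complement gene C1qb of 0.73 and the macrophage gene Cd68 of 0.55, each above the SD between probe sets. Over the 11 genes the summed linear levels were 564 in the graft and 498 in the control colon. Of 4 adipocyte markers, 3 lay below the median level on both arrays, among them Adipoq and Cidea, and Cidec, a lipid droplet protein, stood at 7.41 in the graft, against 4.98 in the control colon. The part of any of these cell types in the differences of the carriers was not tested.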

How the data were processed

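The deposited table gives log2 expression levels of 24074 probe sets on each of 2 arrays. Its software and normalization are not named in the sources used here. The log2 scale of the deposited values was read from their range, 4.19 to 13.37 in the graft and 4.22 to 13.46 in the control colon. The array medians were 5.44 and 5.43 in the same order, and whether arrays had been centred stays unknown. Single-channel values carry no dye direction. Platform annotation gave 1 gene symbol to 18904 probe sets, several to 1330 and none to 3840, and only the first kind was used. RefSeq (GRCm38.p6) held the Entrez identifiers of 18837 of them and changed 0 symbols. The brightest probe set by mean stood for a gene. Differences were taken without further normalization and counted at 2-fold, with and without requiring the higher value to reach the median of all gene values. Each measured carrier was named, and of the other lists the genes with the largest differences or the same substrate. The number of arrays limits precision. Carriers and lists were chosen with earlier results of these data known. Alternatives were quantile normalization, median centring, averaging probe sets, a floor at the 20th percentile and other level filters. Promoters came from RefSeq. Counting was tested on simulated data, with Python 3.11.15, numpy 2.4.6 and pandas 2.3.3.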

Additional observations from a re-analysis of the deposited data

How the results depend on the processing

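All 7 carriers at least 2-fold apart kept their direction and stayed past 2-fold with quantile normalization, with array median centring and with values raised to the 20th percentile. Averaging all probe sets left 6 of the 7, with Slc25a36 at -0.88, because its second probe set was averaged in. No alternative added a carrier past 2-fold. The counts of 3 higher and 4 lower were the same with no filter on low values, and were 2 and 3 where the higher value had to reach the upper quartile of all gene values. The median over the carriers was 0 as deposited, 0.02 with quantile normalization and -0.05 over members whose mean reached the median of all gene values. Slc25a5 and Slc25a10 changed sign with quantile normalization and Ucp3 with the floor, all at differences under 0.1. The count of partner genes at least 2-fold lower was 3 as deposited and 1 with quantile normalization, which left Ppargc1a and Pparg at -0.97 each, and 2 with averaged probe sets, which left Ppargc1a at -0.95. No paired analysis was possible because each group has 1 array, and no replicate could be left out. Depth is not defined for arrays, and without detection calls the 16 carriers below the median level on both arrays cannot be separated from background.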
